A study of Mus musculus with 4 samples.

Results

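The Hedgehog and PTHrP growth plate loop was examined in cultured mouse rib chondrocytes through 9 genes, chosen by symbol out of 18298 genes that were read in any sample. They encode the ligands (Ihh and Pthlh), the receptors (Ptch1, Smo and Pth1r), the ligand-binding inhibitor Hhip and the transcription factors Gli1, Gli2 and Gli3. The study set out to learn how gene expression differs in chondrocytes that have lost Senp6, a protease that removes SUMO2/3 chains from proteins. Rib cartilage was taken at E18.5, its chondrocytes were released, plated, and sequenced at passage 1 as 2 samples of Dermo1-Cre;Senp6f/f genotype (Mut) and 2 samples of Senp6f/f genotype (WT, the control). All 4 samples carried the floxed Senp6 alleles on a C57BL/6 background, and the controls lacked Cre. Dermo1-Cre is expressed from the Twist2 locus in the mesenchymal progenitors of cartilage and bone, so other cell types in a dish may keep an intact Senp6 gene.

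In the growth plate, Ihh is made by prehypertrophic chondrocytes. It binds Ptch1 on neighbouring cells, which releases Smo and lets GLI factors act on their target genes, among them Ptch1, Gli1 and Hhip themselves. Hedgehog signalling also raises PTHrP, the product of Pthlh, near the end of the cartilage, and PTHrP acts through Pth1r to hold chondrocytes in the proliferating state and thereby delays the appearance of new Ihh-producing cells.

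The ligand Ihh was read at most 3 times in any sample, so the cultures held almost no message for the gene that starts the loop. Smo, Pth1r, Gli3, Ptch1 and Gli2 each had at least 581 reads in every sample. Between the genotypes, Smo, Hhip, Gli1 and Pth1r were lower in both mutant samples than in both controls. Gli2 and Pthlh were higher in both, although Pthlh reached 10 reads only in the mutant samples. Ptch1 and Gli3 overlapped. The same held for 22.8% (lower) and 25.3% (higher) of all tested genes. No member passed an adjusted p of 0.05 in the edgeR quasi-likelihood test across all genes. Of the 9 genes, 8 had at least 10 reads in at least 2 samples and were tested, with 0 called higher and 0 called lower. The share of all 14123 tested genes that was called was 0%, with 1312 genes higher and 887 lower at an unadjusted p under 0.05 in the same edgeR fit. In a bulk culture, fewer cells of a type and less RNA per cell cannot be told apart.

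The libraries held 21000000 to 31000000 reads counted on genes (rounded). Senp6 itself had an RPKM (read count scaled to gene length and to the reads counted in the library) of 10.8 and 18.0 in WT replicates 1 and 2 and of 12.0 and 8.07 in Mut replicates 1 and 2. The genotypes overlapped for Senp6, so these gene-level counts do not separate the labels. The floxed exons are only a part of the gene, and counts for single exons were not analysed here. Mut replicate 2 had 11354 reads on Xist and 3 on the Y-linked Ddx3y, the reverse of the other 3 samples, a female pattern in that sample and a male one in the others. The cartilage collagen Col2a1 was read in all samples at an RPKM of 334 to 659, and the bone and fibroblast collagen Col1a1 at 3310 to 7250.

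**Figure D1:**
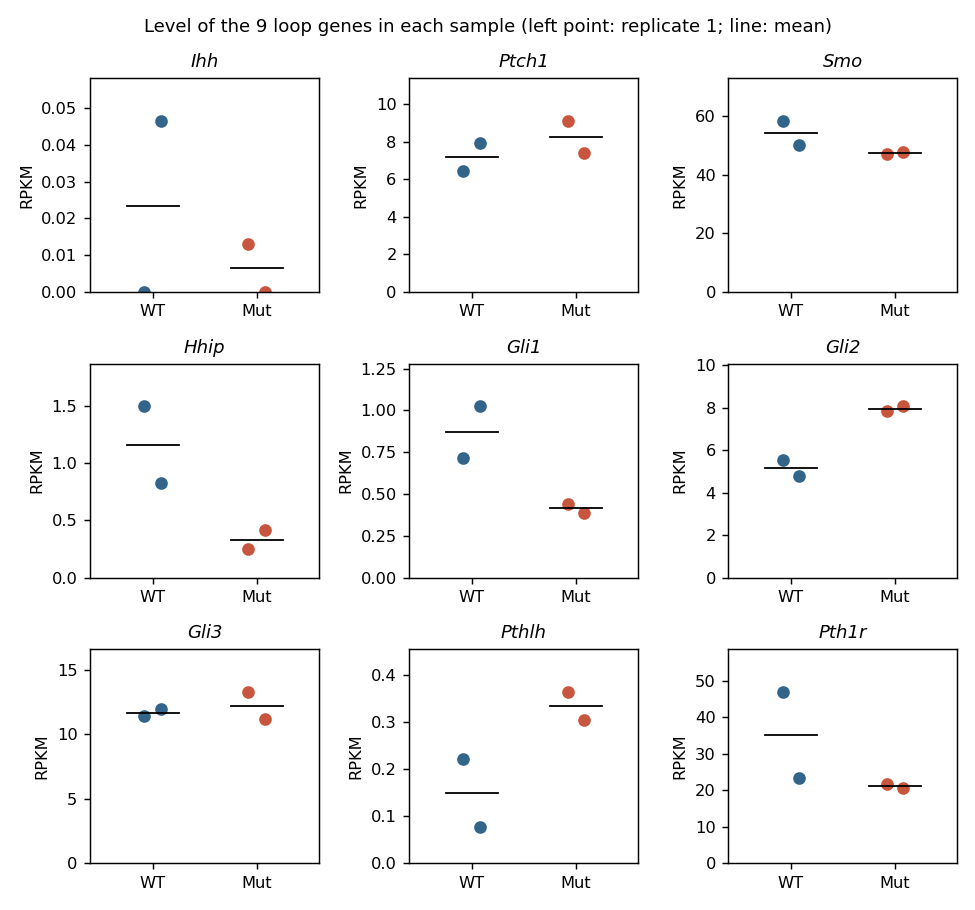
RPKM (vertical axis, linear and from 0, with its own scale for each gene) of the 9 genes in the 2 WT and 2 Mut samples. Points are single samples, with replicate 1 on the left, and the line is the mean of 2. The Mut points lie below both WT points for Smo, Hhip, Gli1 and Pth1r and above them for Gli2 and Pthlh.

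Among the ligands, Ihh (chromosome 1 of GRCm38, 74945315 to 74951672, reverse strand) had 0 and 3 reads in WT replicates 1 and 2 and 1 and 0 reads in Mut replicates 1 and 2. The 3 reads of WT replicate 2 covered 15.1% of the gene length, and the single read of Mut replicate 1 covered 3.37%. Every sample was at or below 3 reads, the limit that a count of 0 allows, so no fold change is given and a difference was not detectable at this depth. For the samples with 0 reads, this limit corresponds to an RPKM of up to 0.0579 in WT replicate 1 and up to 0.0431 in Mut replicate 2. Such limits cover counting error only, as PCR copies of a molecule are not told apart. Of the other Hedgehog ligands, Shh had no read in any sample. Dhh, the ligand of peripheral nerve and testis, had more reads than Ihh, with 7 in each WT replicate and 17 and 16 in the Mut replicates. Its RPKM was 0.140 and 0.112 in WT and 0.230 and 0.238 in Mut, with both mutants above both controls (edgeR adjusted p = 0.485). Dhh reached 10 reads only in the mutant samples, so its presence among the tested genes already favours a positive value.

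Pthlh (chromosome 6, 147252101 to 147264183, reverse strand) encodes PTHrP and had 7 and 3 reads in the WT replicates and 17 and 13 reads in the Mut replicates. Both mutant samples were above both controls, but all 4 counts were small. The exact 95% Poisson intervals of the counts were 2.81 to 14.4 and 0.619 to 8.77 reads in WT and 9.90 to 27.2 and 6.92 to 22.2 reads in Mut, so that of WT replicate 1 overlapped both mutant intervals and that of WT replicate 2 overlapped the interval of Mut replicate 2. These intervals are not scaled to depth, and Mut replicate 1 was the deepest library. The lack of overlap between WT replicate 2 and Mut replicate 1 is therefore not read as a separation. RPKM was 0.220 and 0.0759 in the WT replicates against 0.363 and 0.304 in the Mut replicates. The fitted log2 difference (Mut minus WT) was 1.17, with a 95% interval of -0.39 to 2.72 and an adjusted p of 0.457 in edgeR. Pthlh passed the filter on low counts only through the mutant samples, so its presence among the tested genes already favours a positive value. It was 2.08 without WT replicate 1 and 0.50 without WT replicate 2.

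Among the receptors, Ptch1 (chromosome 13, 63508328 to 63573598, reverse strand) binds the ligand, restrains Smo in its absence, and is itself a target of the pathway. Its RPKM was 6.42 and 7.91 in the WT replicates and 9.13 and 7.42 in the Mut replicates, so the groups overlapped. The fitted log2 difference for Ptch1 was 0.17, with a 95% interval of -0.25 to 0.58 (edgeR adjusted p = 0.701), and without Mut replicate 1 it was -0.0093. Smo (chromosome 6, 29735503 to 29761365, forward strand), the signal-transducing receptor, had the highest level of the 9 genes in each sample. Its RPKM was 58.4 and 50.2 in WT and 47.1 and 47.7 in Mut. Both mutant samples were below both controls, by a margin that was smaller than the gap between the controls. The log2 difference of Smo was -0.24, with a 95% interval of -0.58 to 0.09 (edgeR adjusted p = 0.479). It was -0.10 without WT replicate 1 and -0.40 without WT replicate 2, where it passed the threshold (edgeR adjusted p = 0.0431).

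Pth1r (chromosome 9, 110722085 to 110747145, reverse strand) encodes the receptor of PTHrP and parathyroid hormone, which signals mainly through Gs and cAMP in chondrocytes and osteoblasts. Its RPKM was 46.9 in WT replicate 1, 23.5 in WT replicate 2, and 21.7 and 20.5 in the Mut replicates. WT replicate 1 thus stood apart, and the other control lay close above the mutants. The log2 difference of Pth1r was -0.79, with a 95% interval of -1.55 to -0.02 (edgeR unadjusted p = 0.0448, adjusted p = 0.304). Without WT replicate 1 it was -0.17 (adjusted p = 0.596), and without WT replicate 2 it was -1.25 (edgeR adjusted p = 3.83e-05), so its size depended on which control was used. The sum of the osteoblast markers followed the same order of samples at the top, with WT replicate 1 first. The summed RPKM of the 8 osteoblast markers was 174.5 in WT replicate 1, 70.7 in WT replicate 2, and 20.7 and 42.5 in the Mut replicates. Nearly all of this sum came from Alpl, Ibsp and Sp7, which are also in the list of hypertrophic markers, at an RPKM of 90.1, 70.7 and 11.0 in WT replicate 1. Of the 8 osteoblast markers, 5 were tested. Of these, 4 had both mutants below both controls, as did 22.8% of all tested genes, and Ifitm5 overlapped. Bglap, Bglap2 and Dmp1 were too low to test and had their most reads in Mut replicate 2, at 3, 11 and 14. The part of these cells in the Pth1r values was not tested. Exons of Pth1r share 95 bases with those of Myl3, a gene of slow and cardiac muscle on the other strand, and the sources used here do not state whether counting used strand.

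Hhip (chromosome 8, 79965851 to 80058006, reverse strand) encodes a membrane protein that binds Hedgehog ligands and dampens the signal, and it is a target of the pathway. It had 286 and 196 reads in the WT replicates and 71 and 106 in the Mut replicates, although the mutant libraries were the deeper ones. RPKM was 1.50 and 0.825 in WT and 0.252 and 0.413 in Mut, a mean of 1.16 ± 0.475 (SD, n = 2) against 0.332 ± 0.114 (SD, n = 2). The groups did not overlap, although the replicates within each genotype also lay apart. Exons of Hhip share 175 bases with Gm27820 on the other strand. The reads covered 66.9% to 75.8% of the gene length in WT and 48.3% to 52.7% in Mut. Hhip had the largest fitted difference of the 8 tested members, a log2 value of -1.86 (3.62-fold lower in Mut), with a 95% interval of -2.78 to -0.93 and an edgeR adjusted p of 0.108 (unadjusted p = 0.00233). Only 0.574% of all tested genes had a log2 difference as low or lower.

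Hhip was the 1 member that DESeq2 called, at an adjusted p of 0.000566, where 4.94% of all genes were called in either direction. Without a filter on low counts, edgeR called Hhip alone as well (adjusted p = 0.0484), where 1.56% of genes were called. It was called in each of the 4 edgeR fits that left out 1 sample, with log2 differences from -2.28 to -1.34. Those fits called 4.77% of all genes without WT replicate 1, 20% without WT replicate 2, 3.01% without Mut replicate 1 and 1.01% without Mut replicate 2, and each assumes that the lone sample of a group varies like the pair of the other.

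Gli1 (chromosome 10, 127329882 to 127341974, reverse strand) is an activator of transcription whose own message is a common readout of Hedgehog signalling. It had 55 and 98 reads in the WT replicates and 50 and 40 reads in the Mut replicates. RPKM was 0.715 and 1.02 in WT and 0.441 and 0.387 in Mut, a mean of 0.869 ± 0.219 (SD, n = 2) against 0.414 ± 0.0380 (SD, n = 2). The groups did not overlap, and the level was low in all samples, between the 28.4th and the 37.4th percentile of the genes read in any sample. The fitted log2 difference of Gli1 was -1.11 (2.16-fold lower in Mut), with a 95% interval of -1.89 to -0.33 (edgeR unadjusted p = 0.0127, adjusted p = 0.184). DESeq2 gave an adjusted p of 0.224, and leaving out each sample in turn kept the value between -1.32 and -0.88. Of its annotated exons, 327 bases are shared with the opposite-strand genes Arhgap9 and Gm47200.

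Gli2 (chromosome 1, 118834132 to 119053619, reverse strand) encodes the main activator at the start of the response. Its RPKM was 5.56 and 4.8 in the WT replicates and 7.84 and 8.07 in the Mut replicates, from 784 to 1629 reads per sample. Both mutant samples lay above both controls, and the gap between the groups was wider than the gap within either pair. The mean was 7.95 ± 0.166 (SD, n = 2) in Mut and 5.18 ± 0.541 (SD, n = 2) in WT. The log2 difference of Gli2 was 0.57 (1.49-fold higher in Mut), with a 95% interval of 0.22 to 0.93 (edgeR unadjusted p = 0.00668, adjusted p = 0.144). DESeq2 gave an adjusted p of 0.0687, and 10.8% of all tested genes had a log2 difference as high or higher.

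Gli3 (chromosome 13, 15463235 to 15730026, forward strand) is processed to a repressor when no ligand is bound. Its RPKM was 11.4 and 11.9 in WT and 13.3 and 11.2 in Mut, and the groups overlapped. The log2 difference of Gli3 was 0.03, with a 95% interval of -0.31 to 0.37 (edgeR adjusted p = 0.950), and -0.12 without Mut replicate 1. Its exons share 188 bases with Gm48343 and Gm6556.

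**Figure D2:**
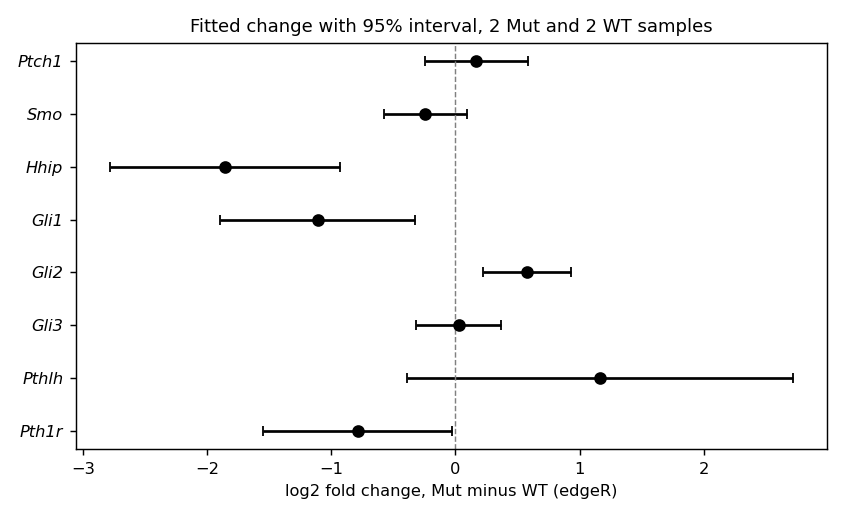
Fitted log2 fold change of the 8 tested genes (horizontal axis, Mut minus WT) with the 95% interval of the edgeR fit to 2 Mut and 2 WT samples, without adjustment for the number of genes. The intervals of Hhip, Gli1 and Pth1r lie below 0 and that of Gli2 lies above 0, while the others include it.

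Of the 8 tested members, 4 had both mutants below both controls and 2 had both above, on the scaled counts. Among all tested genes these shares were 22.8% below and 25.3% above. The 2 members above were Gli2 and Pthlh, and Pthlh passed the filter on low counts only through the mutant samples. The median log2 difference of the members was -0.11, against 0.0097 for all tested genes. For 2 against 2 samples, the smallest p that exact permutation of the labels allows is 0.333.

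Of 8 ratios between members, 6 did not overlap between the genotypes and 2 did. How often ratios of other genes fail to overlap was not computed, so this count has no share to be set against. The ratio of Gli2 to Gli1, in RPKM, was 7.78 and 4.68 in the WT replicates and 17.8 and 20.9 in the Mut replicates. Ptch1 and Gli1, both targets of the pathway, stood at a ratio of 8.99 and 7.73 in WT and 20.7 and 19.2 in Mut. For Ptch1 to Hhip the ratio was 4.29 and 9.59 in WT and 36.2 and 18.0 in Mut. For Pth1r to Pthlh it was 213 and 309 in WT and 59.9 and 67.4 in Mut, a ratio that rests on the few reads of Pthlh. Gli3 to Gli1 stood at 15.9 and 11.7 in WT and 30.1 and 28.9 in Mut, and Gli3 to Gli2 at 2.05 and 2.49 in WT and 1.69 and 1.38 in Mut. The ratios that overlapped were Smo to Ptch1, at 9.10 and 6.35 in WT and 5.16 and 6.43 in Mut, and Gli1 to Hhip, at 0.478 and 1.24 in WT and 1.75 and 0.937 in Mut. The ratios share genes and follow in part from the single values, and none was tested.

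In order of level, Smo came first, Pth1r second, Gli3 next and Ihh last in each of the 4 samples. Ptch1 was above Gli2 in both WT samples and in Mut replicate 1, and Gli2 was above Ptch1 in Mut replicate 2, where their RPKM was 8.07 and 7.42. Gli1 was above Pthlh in all 4 samples. Hhip swapped places with Gli1 between the WT samples and with both Gli1 and Pthlh between the Mut samples, so its rank among them did not hold within a genotype.

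**Figure D3:**
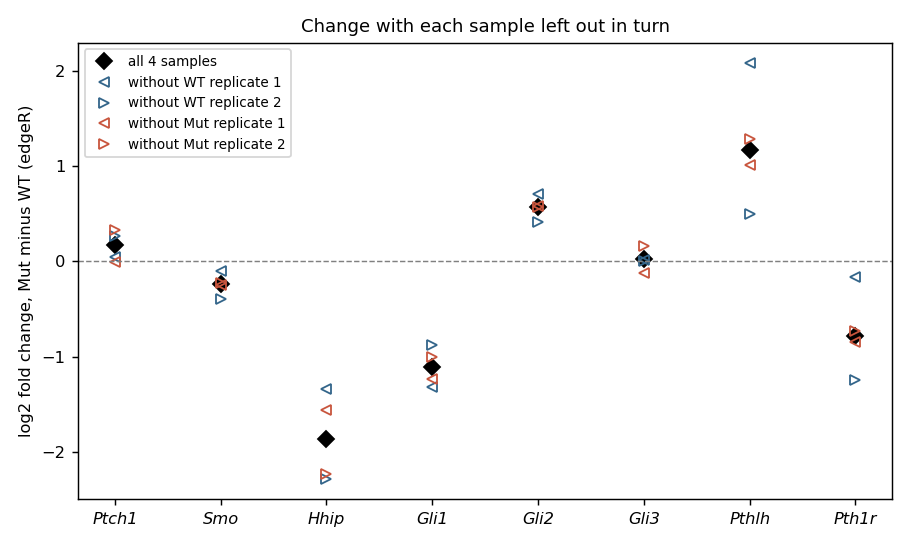
Fitted log2 fold change (vertical axis, Mut minus WT) of each tested gene with all 4 samples (diamonds) and with each sample left out in turn (triangles, blue for WT and red for Mut). Smo, Hhip, Gli1, Gli2, Pthlh and Pth1r keep their sign in each fit, and Ptch1 and Gli3 cross 0. A kept sign largely follows from groups that do not overlap, so it adds no support of its own. Pth1r lies at -0.17 without WT replicate 1 and -1.25 without WT replicate 2.

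Promoter sequence is shown for Hhip and Gli2, the members with the smallest unadjusted p, which lay on opposite sides of the controls. They were chosen after the values were seen. The sequences are the 250 bases before the annotated start in RefSeq, on the reverse strand of GRCm38.p6, at chr8:80058009-80058258 for Hhip and chr1:119053620-119053869 for Gli2. Capitals mark a cAMP response element.

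Hhip: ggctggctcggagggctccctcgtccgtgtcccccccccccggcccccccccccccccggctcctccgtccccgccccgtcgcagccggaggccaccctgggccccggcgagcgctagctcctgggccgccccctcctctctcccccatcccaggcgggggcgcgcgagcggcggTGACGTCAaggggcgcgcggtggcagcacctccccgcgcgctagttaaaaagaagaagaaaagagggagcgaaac

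Gli2: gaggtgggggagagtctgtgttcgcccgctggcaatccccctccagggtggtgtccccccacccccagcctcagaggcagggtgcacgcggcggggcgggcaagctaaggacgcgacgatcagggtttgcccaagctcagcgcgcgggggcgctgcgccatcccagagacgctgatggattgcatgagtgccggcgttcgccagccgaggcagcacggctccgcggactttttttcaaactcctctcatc

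Both stretches are rich in G and C, at 76.0% for Hhip and 67.2% for Gli2. A pair of motifs was searched on both strands of windows that also held the first 50 bases of the transcript. The GLI site GACCACCCA was in none of the 10 windows of the 8 members with an entry (Gli1 had none), and in 0.253% of all 32851 windows. At so low a share, its absence from 10 short windows says nothing about whether the members are GLI targets. The cAMP response element TGACGTCA, which reads the same on both strands, was in the window of Hhip, starting 75 bases before the start, and in 1.79% of all windows. As no member window held the GLI site, the motifs could not overlap there. A match describes the letters and does not show binding.

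The wider pathway was described from lists of genes, of which edgeR called 0 in either direction at an adjusted p of 0.05. Other genes of Hedgehog ligand production and release had both mutants above both controls for 4 of 7 tested genes and below for 1. Over all tested genes, these shares were 25.3% above and 22.8% below. Dhh, among those above, passed the filter on low counts only through the mutant samples. In this list, the lowest unadjusted p values belonged to Scube2, Scube3 and Scube1. These belong to a family of secreted proteins in which Scube2 helps release the ligand from the cell. The RPKM of Scube2 was 5.42 and 2.77 in WT and 1.89 and 2.23 in Mut (edgeR adjusted p = 0.221), and that of Scube3 was 2.25 and 1.26 in WT and 3.43 and 3.53 in Mut (edgeR adjusted p = 0.222). Scube1 stood at 2.98 and 3.16 in WT and 3.60 and 5.02 in Mut (edgeR adjusted p = 0.304).

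Of the 7 other receptor and co-receptor genes, 4 had both mutants below both controls and 1 had both above. Over all tested genes, the shares were 22.8% below and 25.3% above. Gas1, a co-receptor that binds the ligand together with Ptch1, had an RPKM of 105 and 65.6 in WT and 50 and 44.4 in Mut, a log2 difference of -0.90 (edgeR adjusted p = 0.159). Lrp2, the gene with both mutants above, was close to absent. Its RPKM was 0.04 and 0.0297 in WT and 0.0709 and 0.135 in Mut (edgeR adjusted p = 0.215).

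Between Smo and the GLI factors, the genes were nearly level. The 20 genes of signal transduction had a median log2 difference of -0.0086 and the 20 genes of ciliary transport one of -0.046. Both mutants were above both controls for 5 and 3 of them and below for 5 and 7. Among all tested genes, 25.3% were above and 22.8% below. Spop, an adaptor of the ubiquitin ligase that degrades full-length GLI proteins, had an RPKM of 25.4 and 30.8 in WT and 35.7 and 38.4 in Mut (edgeR adjusted p = 0.271). Sufu, which holds GLI proteins in the cytoplasm, had 16.5 and 13.1 in WT and 12.8 and 12.1 in Mut (edgeR adjusted p = 0.486), and the ciliary protein gene Evc had 16.0 and 14.9 in WT and 12.4 and 14.1 in Mut (edgeR adjusted p = 0.420). Of the ciliary genes, Ift20 was at 38.5 and 33.0 in WT and 27.7 and 23.0 in Mut (edgeR adjusted p = 0.222), Ift122 at 8.13 and 6.89 in WT and 5.67 and 5.58 in Mut (edgeR adjusted p = 0.233), and Ift80 at 5.00 and 6.05 in WT and 7.06 and 7.43 in Mut (edgeR adjusted p = 0.327).

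Genes known as targets of Hedgehog in other tissues were mixed, and only some lay on the side of Gli1 and Hhip. Of 16 tested, 7 had both mutants above both controls and 2 had both below, with a median log2 difference of 0.31. The shares over all tested genes were 25.3% above and 22.8% below. Ccnd1, which encodes cyclin D1, had an RPKM of 64.4 and 81.5 in WT and 117 and 130 in Mut, a log2 difference of 0.72 (edgeR adjusted p = 0.101). Grem1, a BMP antagonist, was at 17.4 and 27.1 in WT and 45.1 and 114 in Mut (log2 difference 1.79, edgeR adjusted p = 0.125). Sfrp1, a WNT antagonist, was at 366 and 219 in WT and 130 and 84.0 in Mut (log2 difference -1.50, edgeR adjusted p = 0.110). Each of these genes also answers to other signals.

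Downstream of Pth1r, 11 of 30 tested genes had both mutants above both controls and 8 had both below, with a median log2 difference of 0.042. Among all tested genes, 25.3% were above and 22.8% below. Arrb1, a beta-arrestin that ends signalling of the receptor, had an RPKM of 3.96 and 4.51 in WT and 6.82 and 7.34 in Mut, a log2 difference of 0.70 (edgeR adjusted p = 0.0961). Pde3a, which degrades cAMP, was at 2.61 and 3.38 in WT and 5.25 and 5.56 in Mut (log2 difference 0.81, edgeR adjusted p = 0.113). Sik1, a kinase gene induced by cAMP, was at 4.75 and 4.53 in WT and 6.71 and 6.17 in Mut (edgeR adjusted p = 0.231). Among the 14 tested growth plate genes that PTHrP acts on or that modulate it, 5 were below and 2 above. Ccnd1 is given above, and Zfp521, a nuclear factor induced by PTHrP, was at 33.2 and 26.3 in WT and 21.1 and 18.3 in Mut (log2 difference -0.64, edgeR adjusted p = 0.165). Runx3, which promotes chondrocyte maturation, was at 5.21 and 4.36 in WT and 3.90 and 3.66 in Mut (edgeR adjusted p = 0.375).

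**Figure D4:**
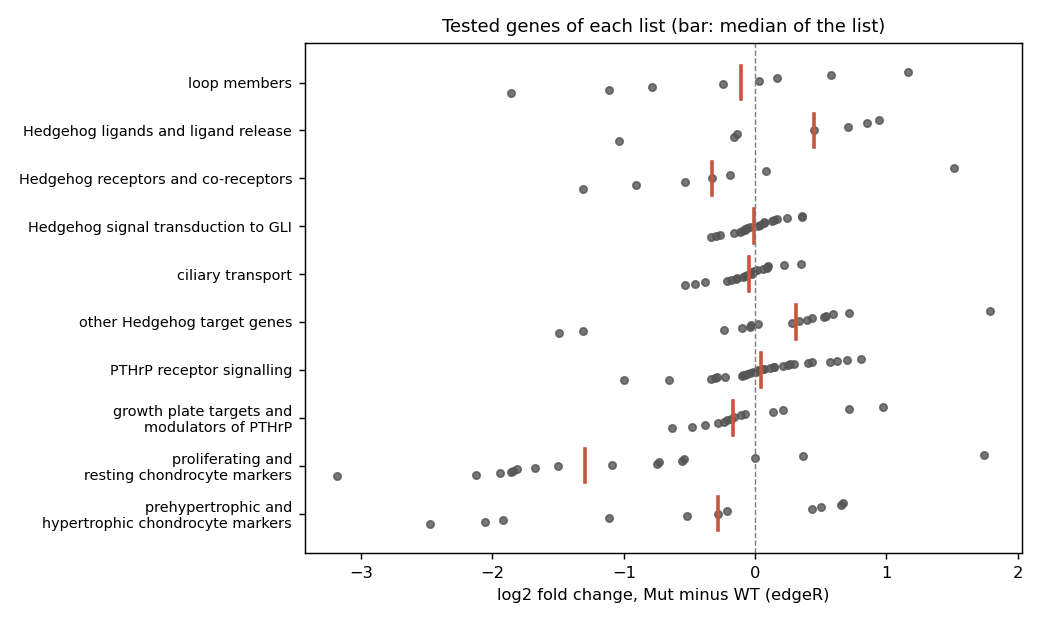
Fitted log2 fold change (horizontal axis, Mut minus WT, edgeR) of each tested gene, as points, in 10 lists of the loop, its wider pathway and growth plate zones, with a bar at the median of each list. The markers of proliferating and resting chondrocytes have the lowest median, at -1.29, and the genes of signal transduction to GLI lie closest to 0.

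Most markers of cartilage were lower in both mutant samples. Among all tested genes, 22.8% had both mutants below both controls and 25.3% had both above. Of 16 tested markers of proliferating and resting chondrocytes, 13 had both mutants below both controls and 2 had both above, with a median log2 difference of -1.29. DESeq2 called 11 of them lower and 1 higher, where it called 4.94% of all genes in either direction. Their summed RPKM was 1065 and 1043 in WT and 526.7 and 664.6 in Mut. The 2 above were Prg4 and Sox5, and Sox6 overlapped. Prg4 was at 0.745 and 1.19 in WT and 2.40 and 4.31 in Mut (edgeR adjusted p = 0.0985). Col9a1 was at 32.2 and 31.7 in WT and 7.29 and 11.1 in Mut (edgeR adjusted p = 0.0739), Col11a2 at 43.8 and 30.8 in WT and 7.10 and 10.6 in Mut (edgeR adjusted p = 0.0739), and Lect1, the gene of chondromodulin, at 20.8 and 29.3 in WT and 5.39 and 8.85 in Mut (edgeR adjusted p = 0.0789). Sox9, the master factor of chondrocytes, was at 45.6 and 31.3 in WT and 24.7 and 23.1 in Mut (edgeR adjusted p = 0.173), and Acan, the cartilage proteoglycan, at 16.8 and 28.2 in WT and 16.5 and 15.1 in Mut (edgeR adjusted p = 0.326). The part of these markers in the Hhip and Gli1 values was not tested.

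Markers of prehypertrophic and hypertrophic chondrocytes were mixed, and Alpl, Ibsp and Sp7 among them are also osteoblast markers. Col10a1, the collagen of hypertrophic chondrocytes, had an RPKM of only 1.47 and 2.21 in WT and 1.76 and 4.24 in Mut, with overlapping groups (edgeR adjusted p = 0.527). Alpl, alkaline phosphatase, was at 90.1 and 45.7 in WT and 11.6 and 22.4 in Mut (log2 difference -2.06, edgeR adjusted p = 0.0985), Panx3 at 0.756 and 0.486 in WT and 0.179 and 0.155 in Mut (edgeR adjusted p = 0.126), and Sp7 at 11.0 and 7.29 in WT and 2.90 and 5.89 in Mut (edgeR adjusted p = 0.218). Of the 11 markers of prehypertrophic and hypertrophic cells, 6 were below and 3 above. Over all tested genes, the shares were 22.8% below and 25.3% above. The 3 above were Spp1, Vegfa and Phospho1. Vegfa was at 14.6 and 20.8 in WT and 25.8 and 25.7 in Mut (edgeR adjusted p = 0.236).

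Other cell types differed as well, and their part in the values of the loop genes was not tested. Among all tested genes, 25.3% had both mutants above both controls and 22.8% had both below. The summed RPKM of the 10 muscle markers was 102.2 and 33.6 in WT and 170.5 and 190.2 in Mut, with 7 of 10 above and 0 below. Of the 11 fibroblast and perichondrium markers, 5 were below and 3 above, with summed values of 13850 and 10210 in WT and 10560 and 8208 in Mut. Macrophage markers summed to 20.9 and 17.8 in WT and 8.13 and 11.4 in Mut, with 6 of 6 tested below, and Ptprc was read at most 6 times. Endothelial markers summed to 0.972 to 1.57 over the 4 samples, and the 7 red blood cell markers to 0.050 to 0.252 with none tested. Epithelial markers summed to 4.29 and 10.8 in WT and 21.6 and 27.6 in Mut, mostly from Krt18. All 3 that were tested, Krt18, Krt8 and Epcam, were above. Epcam had 7 reads in each WT replicate and 24 and 42 in the Mut replicates, so it passed the filter only through the mutant samples. The defining keratin Krt5 had at most 1 read.

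The genes whose pattern over the 4 samples was closest to a member were sought on centred log2 CPM (counts scaled to library size). Ptgfr, the prostaglandin F receptor, was closest to Gli1, at a root mean square distance of 0.0709, followed by Gm14432 and BC065397. For Pthlh they were Cd200, Slc52a3 and Lgi4, and for Pth1r 1700088E04Rik, Plcl1 and Kctd12. Within a distance of 0.2 lay 22 genes for Gli1, 27 for Pthlh and 287 for Pth1r, so a likeness over 4 samples singles out no gene. Ihh had too few reads for this comparison.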

How the data were processed

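Poly(A) RNA of the 4 cultures was sequenced by a service. For each sample the authors deposited whole read counts per gene without normalization, the RPKM (count scaled to the listed gene length and the library total, as recomputing it from the counts showed) and the percent of gene length covered. The submitters' processing notes name SAMtools and mm9. The aligner and counting tool are not given in the sources used here. Genes absent from a file were given a count of 0.

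Counts were fitted with edgeR 4.0.16 in R 4.3.3, by its quasi-likelihood F test with TMM factors (0.966 to 1.03). A gene was tested if 2 or more samples held 10 or more counts, and p values were adjusted over 14123 genes by Benjamini-Hochberg, with a threshold of 0.05. Standard errors and 95% intervals derive from the F statistic. Alternatives were DESeq2 1.42.0, RLE factors or none, other count filters, limma 3.58.1 on log2(RPKM + 1) and log2(RPKM + 0.1), a replicate block, omission of X and Y genes, and omission of each sample. Scripts were tested on simulated data. Replicates differed well beyond sampling noise (chi-square per degree of freedom 51.5 in WT and 24.9 in Mut).

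Gene positions come from GENCODE (GRCm38), matched by Entrez identifier, as the files hold no coordinates. The members and lists were chosen with earlier results of these data known. Named genes were all members, list genes past the threshold or else the 3 with the smallest unadjusted p in each pathway and cartilage list, defining markers, and nearest-pattern genes, with markers that went against their list added. Of these, 1 gene that this rule names is not reported here. Whether each sample is 1 embryo is not stated. The p values set the genotype difference against the spread between these samples, and may not speak for the spread between embryos.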

Additional observations from a re-analysis of the deposited data

How the results depend on the processing

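Over the 8 tested members and 13 alternatives, 91 of the fitted log2 differences kept their direction and their side of the threshold, 10 kept their direction and passed it, and 2 reversed. Without Mut replicate 1, the log2 difference was -0.0093 for Ptch1 and -0.12 for Gli3, and leaving out single samples spanned -0.0093 to 0.33 for Ptch1 and -0.12 to 0.16 for Gli3. Pthlh could not be fitted with at least 10 counts in every sample.

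Over all genes, DESeq2 called 434 higher and 263 lower, edgeR on library totals alone 6 and 2, edgeR without a filter 225 and 61, and edgeR without X and Y genes 2 higher. Leaving out 1 sample gave from 96 to 1331 higher and from 47 to 1492 lower genes, the most without WT replicate 2. For the members, DESeq2 and the fit without a filter each called 1 lower, which was Hhip. Leaving out 1 sample called from 0 to 1 higher (Gli2, without either WT sample) and from 1 to 3 lower (Hhip in each, with Smo and Pth1r without WT replicate 2). On log2(RPKM + 1) the difference shrank to -0.68 for Hhip and -0.40 for Gli1, as a pseudocount of 1 exceeds most of their levels.

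A replicate block by number called 84 higher and 33 lower genes and 0 members, at adjusted p values of 0.115 for Hhip, 0.189 for Gli2 and 0.267 for Gli1. The numbers are not known to pair the samples, as the differences between replicates 1 and 2 correlated at -0.0423 across genes between the genotypes.

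With 2 samples per group, the spread rests on 1 pair in each. Across genes, the controls differed more than the mutants (chi-square per degree of freedom 51.5 against 24.9), but not for every member. The SD of RPKM was 16.6 in WT and 0.856 in Mut for Pth1r, but 0.391 in WT and 1.48 in Mut for Gli3. Ihh and Pthlh are limited by depth, and groups of 2 are too small to test for an outlying sample.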
